A study of Mus musculus with 10 samples.

Results

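The proliferin genes Prl2c2 and Prl2c3 were examined in RNA-seq of mouse tongue epithelial cells grown as primary cultures. They are 2 of the 18586 rows of the deposited expression table, taken by gene symbol, and both were above the filter on low values in all libraries. Both genes were chosen by their measured levels in these same libraries, namely their differences between culture lines, so those differences are given as a description with no test. The alleles shared by EY and N cells were Krt14-CreERT, LSL-rtTA and tetON_H2B-GFP, and EY cells alone also had tetON_E6-E7 and tetON_YAP1S127A. In this system a tamoxifen-activated recombinase, driven by the Krt14 promoter of basal epithelial cells, switches on a reverse transactivator, and doxycycline then induces the fluorescent histone reporter, the papillomavirus oncogenes E6 and E7 and a constitutively active form of YAP1. Cells were taken 15 days after induction, sorted for the reporter and cultured, and the methods describe culture both before and after the sort. For EY there were 3 culture lines (EY3960, EY4028 and EY4174) and 2 libraries of each, 6 in total. For N there were 4 libraries, every one of them from line N4172. Genotype and line therefore cannot be told apart for N, and libraries of one line are not independent animals, so p-values measure the spread between libraries.

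Proliferins are secreted glycoprotein hormones of the prolactin family. In the mouse placenta they are made by trophoblast giant cells and are known for promoting growth of blood vessels. They were first found in cultured fibroblasts stimulated to divide by serum, and their promoters are a classical target of AP-1 (the Jun and Fos family of transcription factors) and of glucocorticoid receptor. The prolactin family has expanded in rodents into a large cluster of genes on chromosome 13, and the Prl2c copies are recent duplicates of one another.

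The copies are nearly identical, and this bears on how far their levels can be separated. In the GENCODE M21 annotation, the chosen transcripts were 857 bases for Prl2c3, 842 for Prl2c2 and 844 for Prl2c5, the only other Prl2c gene with a row in the table. Each has 5 exons. The coding sequences of Prl2c3 and Prl2c2 were 99.6% identical, with 3 differences in 672 bases. Counted from 1 at the A of the start codon of Prl2c3, with the base of Prl2c3 first and that of Prl2c2 second, these were C14T, A200C and G319T. Prl2c5 was 96.8% identical to Prl2c3 and 97% to Prl2c2 over 666 aligned coding bases. The stretch of 150 coding bases from 192 to 341 is shown because it holds 2 of the 3 differences between the measured pair. Capitals mark the bases at which the 3 copies are not all the same.
Prl2c3: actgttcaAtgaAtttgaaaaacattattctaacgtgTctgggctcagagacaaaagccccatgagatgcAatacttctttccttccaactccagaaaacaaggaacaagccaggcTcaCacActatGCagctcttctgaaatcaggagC
Prl2c2: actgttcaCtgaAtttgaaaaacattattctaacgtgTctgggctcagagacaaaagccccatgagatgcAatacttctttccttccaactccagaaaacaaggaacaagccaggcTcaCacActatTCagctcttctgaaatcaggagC
Prl2c5: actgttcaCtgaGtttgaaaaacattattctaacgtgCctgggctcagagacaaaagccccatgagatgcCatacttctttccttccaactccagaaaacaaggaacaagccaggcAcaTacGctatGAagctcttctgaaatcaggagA
In this stretch Prl2c5 differed from Prl2c3 at 9 bases and from Prl2c2 at 9. Of all 100-base windows of the Prl2c3 transcript, 62.3% occurred without a mismatch in Prl2c2, and 63.5% of the Prl2c2 windows occurred in Prl2c3. None of the Prl2c5 windows occurred in Prl2c3 and 2.82% occurred in Prl2c2. A read of that length from Prl2c5 can thus usually be told from the other two, whereas many reads of Prl2c2 and Prl2c3 cannot be told apart. How such reads were divided is not stated for these values. The methods describe TPM only for gene set enrichment, where the highest transcript stood for its gene after pseudo-alignment to a human transcriptome. The rows measured here are mouse genes, the rodent Prl2c copies among them, which a human transcriptome does not hold. Whether the values came from that step with a mouse reference is not stated. For these reasons the summed level of Prl2c2 and Prl2c3 is given beside each gene and the split between them is uncertain.

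Prl2c3 and Prl2c2 were highest in line EY3960, lower in EY4028, and in EY4174 close to N. Levels are in TPM, a unit of transcript abundance that the authors had scaled by transcript length and to a common total in each library. Prl2c3 was measured at 1542 and 1518 TPM in EY3960, 564 and 579 TPM in EY4028, and 145 and 149 TPM in EY4174. The N libraries had 154, 157, 147 and 204 TPM of Prl2c3. Libraries of EY3960 and EY4028 lay far above all N libraries, while 1 of the EY4174 libraries lay within the N range and the other just under it. Prl2c2 was measured at 912 and 911 TPM in EY3960, 382 and 366 TPM in EY4028, and 93.1 and 88.4 TPM in EY4174. The N libraries had 81.9, 95.7, 82.2 and 112 TPM of Prl2c2. The order of the lines was the same, with both EY4174 libraries inside the N range.

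**Figure D1:**
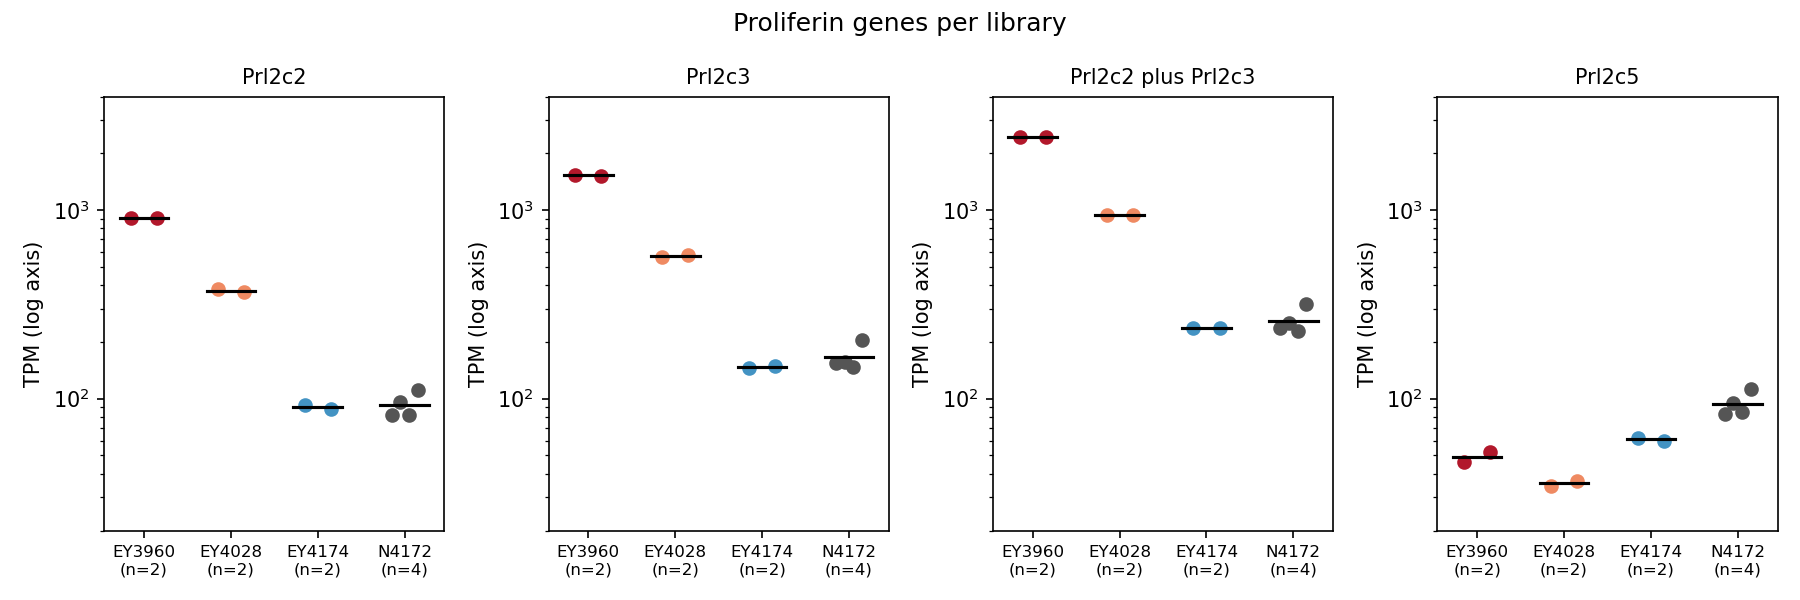
TPM on a log axis of Prl2c2, Prl2c3, their sum and Prl2c5 in each library (points) with the line mean (bars), for 3 EY lines (n = 2 each) and the N line (n = 4). The sum falls from 2442 TPM in EY3960 to 946 in EY4028 and 237 in EY4174, beside 258 in N4172, whereas Prl2c5 is lower in every EY library than in every N library.

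The sum of both genes was 2454 and 2430 TPM in EY3960, 946 and 945 TPM in EY4028, 238 and 237 TPM in EY4174, and 236, 253, 229 and 316 TPM in N. The mean was 2442 ± 17.1 TPM in EY3960 (SD, n = 2), 946 ± 1.10 in EY4028 (SD, n = 2), 237 ± 0.569 in EY4174 (SD, n = 2) and 258 ± 39.5 in N (SD, n = 4). The sum in EY3960 was thus 9.45 times that of N, 2.58 times that of EY4028 and 10.3 times that of EY4174, and EY4028 had 3.66 times the level of N. The EY4174 mean was 0.918 times that of N, and its libraries lay inside the N range. In EY3960 these 2 genes made up 0.243% to 0.246% of all TPM, and in N between 0.0230% and 0.0316%. Prl2c3 ranked 124 among all rows by TPM in both EY3960 libraries, between 230 and 236 in EY4028, between 781 and 786 in EY4174 and between 582 and 798 in N. The secreted hormone was therefore among the most abundant messages of the EY3960 culture, and was also readily detected in N.

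On the log2(TPM + 1) scale the sum differed from N by 3.25 ± 0.13 (SE) in EY3960, 1.88 ± 0.13 in EY4028 and -0.11 ± 0.13 in EY4174. For Prl2c2 alone the differences from N were 3.29 ± 0.11 (SE), 2.01 ± 0.11 and -0.02 ± 0.11 in the same order. For Prl2c3 alone they were 3.21 ± 0.11 (SE), 1.79 ± 0.11 and -0.16 ± 0.11. By absolute size, the difference of Prl2c2 in EY3960 ranked 67 among the 11630 genes tested, and in EY4174 it ranked 11041. For scale, 7.04% of tested genes were called in EY3960 against N, 5.74% in EY4028 and 4.95% in EY4174, where called means a limma adjusted p under 0.01 and an absolute log2 difference over 1. Between the EY lines, 5.12% of tested genes were called, and since this contrast chose the 2 genes nothing is read from it. The ratio of Prl2c3 to Prl2c2 stayed between 1.48 and 1.88 in all 10 libraries while the sum varied over 10-fold. Their Pearson correlation on the log2 scale was 0.997 over 10 libraries, which lie in 4 lines, and the part of shared reads in it was not tested.

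The comparison of all EY with N libraries asks whether the genotype as a whole differed. Prl2c2 averaged 459 ± 373 TPM over the EY libraries (SD, n = 6) and 92.9 ± 14.1 TPM over those of N (SD, n = 4). Its log2 difference was 1.76 ± 0.74 (SE) with a limma adjusted p of 0.121. Prl2c3 had 749 ± 634 TPM over the EY libraries (SD, n = 6) and 166 ± 26.1 TPM over those of N (SD, n = 4), with a log2 difference of 1.61 ± 0.75 (SE, limma adjusted p 0.156). Neither gene passed the threshold, and for both the EY and N libraries overlapped through EY4174. Both were chosen for differing between lines, which widens the spread in this fit, so nothing is read from the missing calls. The background of calls between EY and N was 3.55% of the tested genes, and EY and N libraries did not overlap for 20.4%. Without line EY4174, the line low in both genes, the log2 difference was 2.65 for Prl2c2 and 2.50 for Prl2c3. Without line EY3960, the line highest in both, it was 0.99 and 0.82, under the fold threshold of 1. The choice of these genes by line fixes such shifts, and no test is given for them. The order of the lines was not that of Yap1, which was 37.1 and 41.8 TPM in EY3960, 34.7 and 39.03 in EY4028, 57.1 and 54.9 in EY4174 and 17.2 to 20.9 in N. Whether the Yap1 row takes in reads of the transgene is not given. The line with the most Yap1 had the least Prl2c2 and Prl2c3 of the EY lines. Whether YAP acts on the levels of these genes was not tested.

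Prl2c5, the near copy that lies beside them, did not share the pattern. It was measured at 46.3 and 52.4 TPM in EY3960, 34.5 and 36.7 TPM in EY4028, 62.1 and 59.5 TPM in EY4174, and 83.1, 95.01, 84.8 and 113 TPM in N. All 6 EY libraries lay under all 4 N libraries. The log2 difference between EY and N was -0.96 ± 0.17 (SE) with a limma adjusted p of 0.00198, which passed the p threshold and fell short of the fold threshold of 1. By line, the difference from N was -0.91 ± 0.12 (SE) in EY3960, -1.36 ± 0.12 in EY4028 and -0.61 ± 0.12 in EY4174, of which that in EY4028 was called (limma adjusted p 1.61e-05). As a share of the 3 copies, Prl2c5 made up 26.04% to 27.3% in N, 20.1% to 20.7% in EY4174, 3.51% to 3.74% in EY4028 and 1.85% to 2.11% in EY3960. N had similar levels of Prl2c2 and Prl2c5, whereas in EY3960 Prl2c2 was over 10 times the level of Prl2c5.

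**Figure D2:**
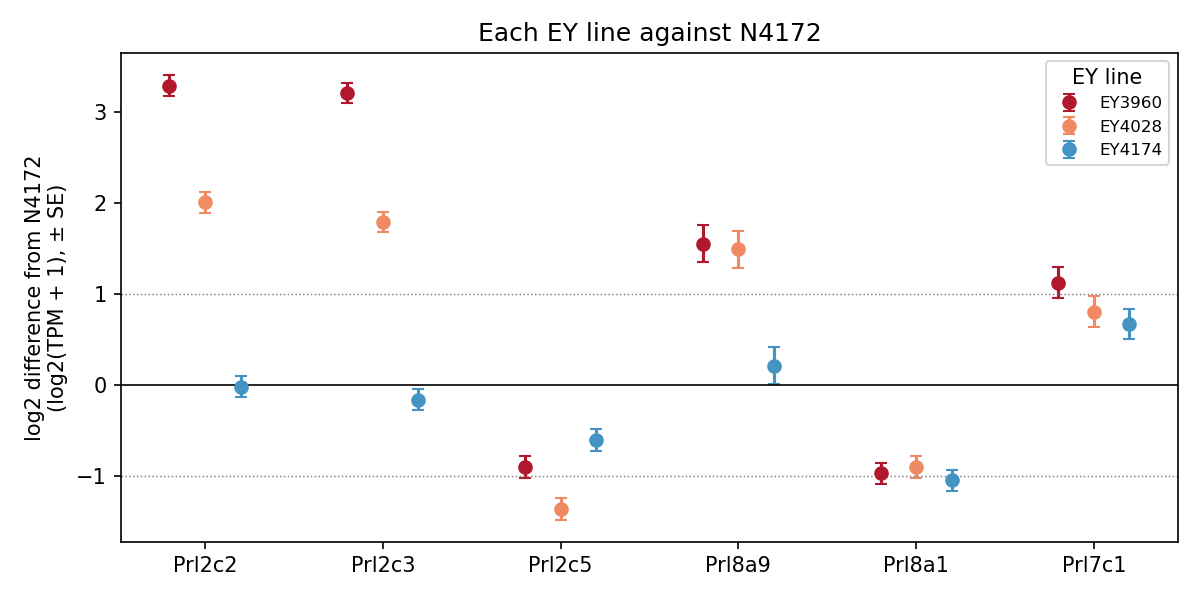
Log2 difference of each EY line from N4172 on log2(TPM + 1), with its SE from the model with 4 line means, for the 6 prolactin family genes that passed the filter (dotted lines at 1 and -1). Prl2c2 and Prl2c3 are near 3 in EY3960 and near 0 in EY4174, while Prl2c5 and Prl8a1 are below 0 in all 3 lines.

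Other prolactin family genes were also expressed, at lower levels. The table held 11 family rows, of which 6 passed the filter. The other 5, Prl2a1, Prl5a1, Prl6a1, Prl7d1 and Prl8a6, reached 1.85 TPM at most. Prl8a9, a placental prolactin paralog, was measured at 61.3 and 60.2 TPM in EY3960, 60.96 and 55.5 TPM in EY4028, 23.05 and 23.7 TPM in EY4174, and 17.1, 18.1, 16.8 and 30.8 TPM in N. As for Prl2c2 and Prl2c3, the first 2 lines lay above all N libraries and EY4174 lay within the N range, but EY3960 and EY4028 were alike. Prl8a9 was called higher than N in EY3960 (log2 difference 1.55 ± 0.20 SE, limma adjusted p 2.90e-04) and in EY4028 (1.49 ± 0.20 SE, limma adjusted p 4.76e-04). In EY4174 the difference was 0.21 ± 0.20 (SE, limma adjusted p 0.470). Without N replicate 4, which stood apart at 30.8 TPM, both EY4174 libraries lay above the N range and the difference was 0.41 (limma adjusted p 0.00184), still not called. The EY lines differed from one another in Prl8a9 (limma F test, adjusted p 0.00443), and over all EY libraries against N the difference was 1.09 ± 0.35 (SE, limma adjusted p 0.0453), which was not called.

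Prl8a1, a further placental paralog, was lower in EY by about the same amount in each line. It was measured between 26.5 and 30.3 TPM in the 6 EY libraries and at 55.02, 50.8, 51.6 and 68.8 TPM in N, without overlap. The log2 difference was -0.97 ± 0.09 (SE, limma adjusted p 2.89e-05), just short of the fold threshold, and in EY4174 alone it was -1.05 ± 0.12 (SE, limma adjusted p 1.07e-04), which was called. The EY lines were within 0.15 of one another for Prl8a1 on the log2 scale. Prl7c1 was low throughout, at 0.741 to 1.81 TPM in EY and 0.0741 to 0.435 TPM in N. It was called in EY3960 (1.13 ± 0.17 SE, limma adjusted p 5.47e-04) and not over all EY libraries (0.87 ± 0.16 SE, limma adjusted p 0.00244). Prl7c1 passed the filter only through EY libraries, which favours a higher level in EY, so nothing is read from its calls. At such low levels the pseudocount also decides them, and with 0.1 in place of 1 the difference of Prl7c1 was 2.09 over all EY libraries (limma adjusted p 0.00244) and 2.01 in EY4028 (limma adjusted p 0.00753), both called. The family thus did not move as a block, since 2 of its tested members were under N in every EY library. Among all tested genes 20.4% had no overlap of EY and N, in either direction.

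**Figure D3:**
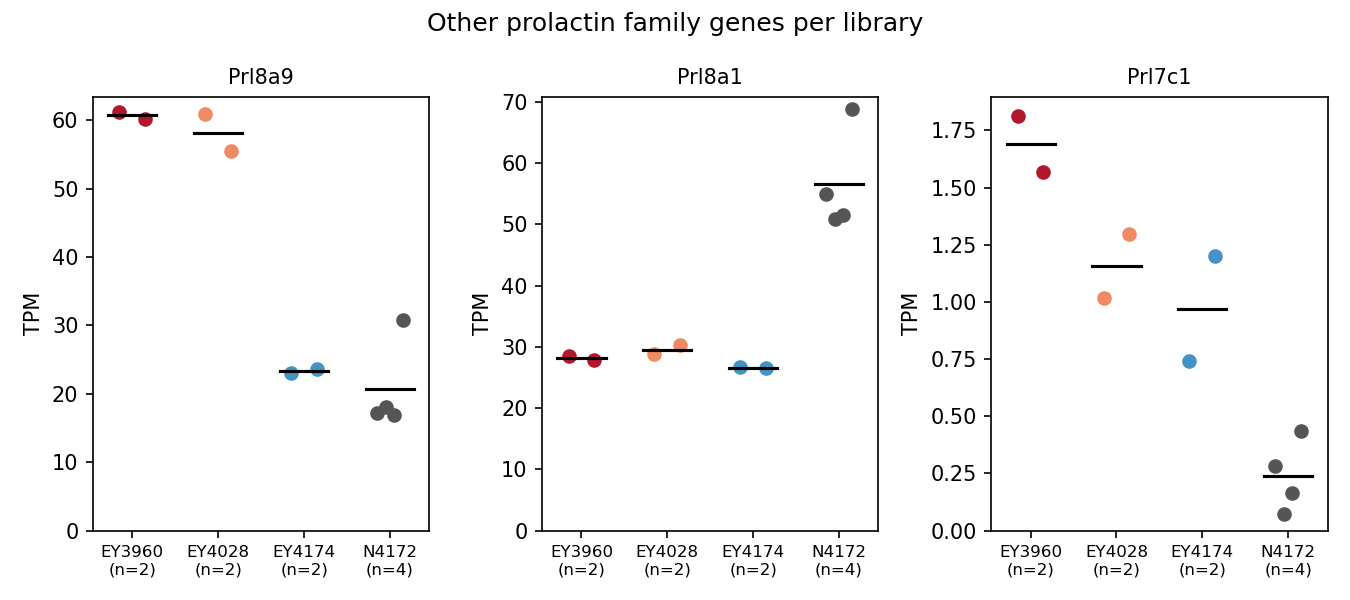
TPM of Prl8a9, Prl8a1 and Prl7c1 in each library (points) with the line mean (bars), for 3 EY lines (n = 2 each) and the N line (n = 4). Prl8a9 is near 60 TPM in EY3960 and EY4028 and near 20 TPM in EY4174 and most N libraries, Prl8a1 is near 28 TPM in all EY lines and over 50 TPM in N, and Prl7c1 stays under 2 TPM.

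Genes that lie beside the proliferin copies on chromosome 13 were then compared. In the annotation the order is Prl2c3, Prl2c2 and Prl2c5, with Ero1lb, an oxidase of protein folding in the endoplasmic reticulum, as the nearest tested protein-coding gene before them and Gpr137b, a lysosomal membrane protein, after them. Among the 10 nearest tested genes on each side, 0 of 20 were called by limma between EY and N (beside 3.55% of all tested genes). In EY3960 1 was called (beside 7.04%), in EY4028 0 (5.74%), in EY4174 0 (4.95%) and between the EY lines 0 (5.12%). These counts are near the shares of all tested genes, so nothing is read from them. At an unadjusted limma p under 0.05, 16 of the 20 passed between EY and N and 7 between the lines. By line, 11 passed in EY3960, 11 in EY4028 and 18 in EY4174. Of all 11630 tested genes, 37.5% passed between EY and N and 4047 genes between the lines. By line, 4628 of them passed in EY3960, 4783 in EY4028 and 4810 in EY4174. The gene called in EY3960 was Zmynd11, a reader of histone methylation, which was lower there than in N (log2 difference -1.10 ± 0.23 SE, limma adjusted p 0.00513). Medians of the 20 neighbours were -0.37 in EY3960, -0.35 in EY4028 and -0.48 in EY4174, where all tested genes had medians of 0.01, 0.09 and -0.01. Ero1lb had a difference between EY and N of -0.59 ± 0.17 (SE, limma adjusted p 0.0245) and Gpr137b of -0.61 ± 0.11 (SE, limma adjusted p 0.00260), neither of them called. Gpr137b has a near copy, Gpr137b-ps, so its level is uncertain. The highest difference of a neighbour in EY3960 was 0.35, against 3.29 and 3.21 for Prl2c2 and Prl2c3. In the other 2 EY lines the largest was a decrease of Lyst, which varied widely within N. It was -2.10 ± 0.92 in EY4028 and -2.25 ± 0.92 in EY4174 (SE, limma adjusted p 0.134 and 0.111), not called.

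**Figure D4:**
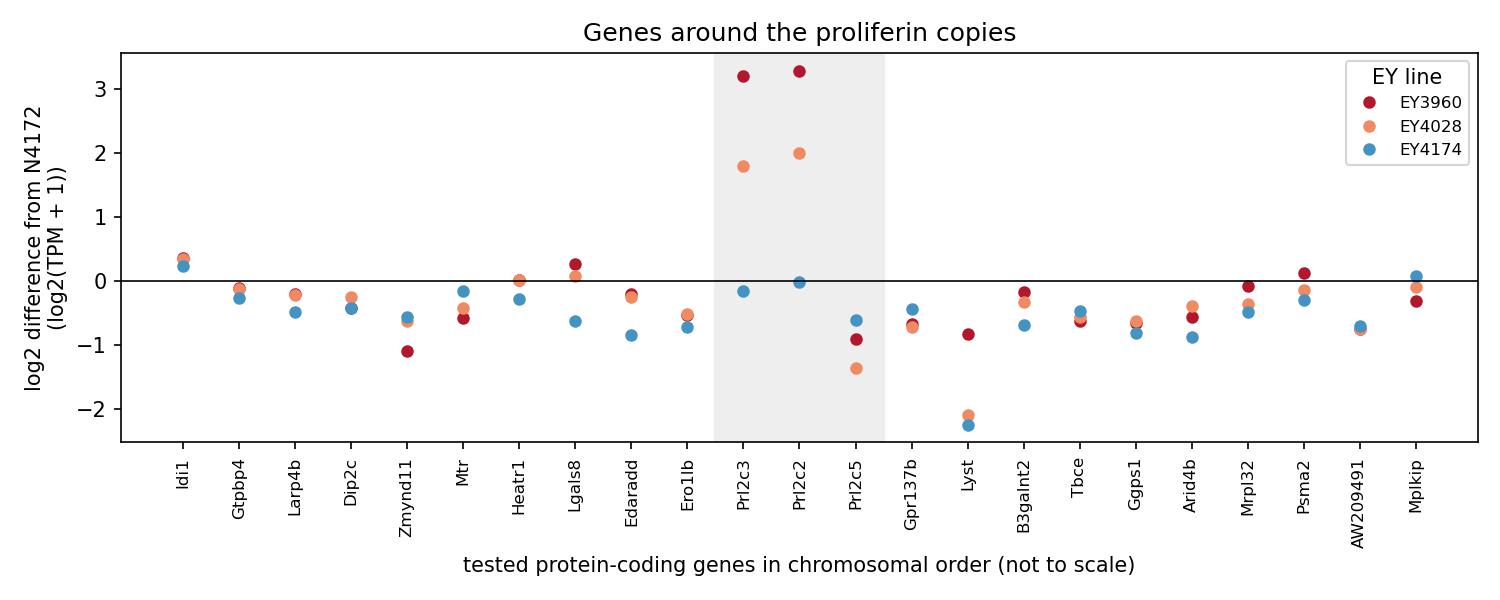
Log2 difference from N4172 on log2(TPM + 1) of Prl2c3, Prl2c2 and Prl2c5 (shaded) and the 10 nearest tested protein-coding genes on each side, in chromosomal order and not to scale, for each EY line. The neighbours lie between -1.10 and 0.35 in EY3960, while Prl2c3 and Prl2c2 stand at 3.21 and 3.29. Lyst lies at -2.10 in EY4028 and -2.25 in EY4174, neither of them called.

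The larger part of the family lies elsewhere on the chromosome, around Prl2c1, a copy with no row in the table used here. The 20 tested neighbours of Prl2c1 include Prl8a9, Prl8a1 and Prl7c1, and their median difference was 0.00 in EY3960, -0.08 in EY4028 and -0.19 in EY4174. None was called by limma between EY and N (beside 3.55% of all tested genes), where 10 had an unadjusted p under 0.05 (50%, beside 37.5%). In EY3960, 4 of the 20 were called (20%, beside 7.04% of all tested genes), namely Prl8a9, Prl7c1, Cmah, which modifies sialic acid (1.09 ± 0.16 SE, limma adjusted p 4.09e-04), and Mboat1, a lysophospholipid acyltransferase (1.04 ± 0.19 SE, limma adjusted p 0.00258). Of these, Prl7c1 passed the filter only through EY libraries, so its call adds nothing to this share. In EY4028, Prl8a9 and Cmah were called (Cmah 1.27 ± 0.16 SE, limma adjusted p 1.80e-04), and in EY4174 only Prl8a1. Of all tested genes 5.74% were called in EY4028 and 4.95% in EY4174. Gm11361, a predicted gene and the nearest on the other side, differed between the EY lines (limma F test, adjusted p 2.86e-04), with means of 1278, 701 and 1421 TPM in EY3960, EY4028 and EY4174 and 1260 TPM in N.

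Promoter sequences were compared because Prl2c3 and Prl2c5 went in opposite directions in EY3960 and EY4028. No promoter of Prl2c2 was in the set used, so the comparison does not cover that gene. The 250 bases before the start site of each are shown from the RefSeq annotation of GRCm38.p6, at chr13:12800080-12800329 on the minus strand for Prl2c3 and chr13:13182466-13182715 on the plus strand for Prl2c5. Capitals mark bases that differ or have no counterpart in the alignment.
Prl2c3: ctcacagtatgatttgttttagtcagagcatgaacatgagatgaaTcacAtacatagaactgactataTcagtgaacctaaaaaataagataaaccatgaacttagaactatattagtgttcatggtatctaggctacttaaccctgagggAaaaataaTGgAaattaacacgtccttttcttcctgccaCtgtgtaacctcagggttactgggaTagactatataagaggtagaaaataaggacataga
Prl2c5: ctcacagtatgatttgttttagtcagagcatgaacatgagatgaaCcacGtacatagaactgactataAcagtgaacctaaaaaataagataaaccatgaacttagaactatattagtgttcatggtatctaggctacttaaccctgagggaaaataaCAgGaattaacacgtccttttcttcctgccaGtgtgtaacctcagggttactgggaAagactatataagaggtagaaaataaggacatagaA
These windows were 96.8% identical, with 8 mismatches in 249 aligned bases. The AP-1 motif TGANTCA, in which N is any base, was searched on both strands, and Prl2c3 holds it as TGAATCA with its first base 209 bases before the start site. At the same place Prl2c5 has TGAACCA, which is no match. In the table of 32851 mouse promoters of 300 bases, 7.81% hold this motif. It is held by 9 of the 25 prolactin family promoters listed there, including that of Prl8a9, as TGACTCA. There its first base is at -3 on the same count, which is past the start site. The GATA motif AGATAA occurs at 163 bases before the start in both windows, apart from the AP-1 letters, in 12 of the 25 family promoters and in 11.2% of all promoters. Neither the TEAD motif GGAATG, present in 14.7% of promoters and 9 of the 25 of the family, nor the glucocorticoid receptor motif AGAACA, present in 19% of all and 1 of the family, nor TATAAA, present in 13.6% of all and 6 of the family, occurs on either strand of these windows. Prl8a9 and Prl8a1, which differed in direction in EY3960 and EY4028, both hold the TEAD motif on the reverse strand, at 128 and 131 bases before the start. The motifs were chosen after the levels were seen. A match describes letters and is no evidence of binding.

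Regulators of proliferin genes were examined as a list of AP-1, glucocorticoid and GATA factors with glucocorticoid response genes. Of its 20 genes 16 were tested, and 1 was called between EY and N, in the upward direction (6.25%, beside 3.55% of all tested genes). At the adjusted p alone 4 of the 16 passed, beside 1377 of all 11630 tested genes. The list median was 0.11 against 0.03 for all tested genes. The called gene was Atf3, a stress-induced partner of Jun, at 17.3 ± 2.16 TPM over the EY libraries (SD, n = 6) and 5.26 ± 2.98 TPM over those of N (SD, n = 4), with a log2 difference of 1.64 ± 0.22 (SE, limma adjusted p 3.24e-04). Atf3 was called in each EY line, by 1.79 in EY3960, 1.71 in EY4028 and 1.43 in EY4174. Its call between EY and N was lost with line as a random block (limma adjusted p 0.0335) and with 1 mean per line (limma adjusted p 0.0959). The other 3 were Jun, Junb and Jund, core AP-1 subunits, each higher in all EY than in all N libraries and under the fold threshold, with differences of 0.95 ± 0.21 (SE, limma adjusted p 0.00684), 0.62 ± 0.09 (SE, limma adjusted p 8.12e-04) and 0.45 ± 0.10 (SE, limma adjusted p 0.00686). Jun had a mean of 16.8 TPM in EY3960, 24.3 TPM in EY4028, 29.99 TPM in EY4174 and 11.7 TPM in N. It was called in EY4028 (1.02 ± 0.19 SE, limma adjusted p 0.00270) and EY4174 (1.32 ± 0.19 SE, limma adjusted p 6.53e-04), and among the EY lines the order of its means was the reverse of that of Prl2c3. Fos, the other classical subunit, had a difference of -0.36 ± 0.16 (SE, limma adjusted p 0.128) and Fosl1 of 0.45 ± 0.17 (SE, limma adjusted p 0.0796). Nr3c1, the glucocorticoid receptor, was at 28.7 ± 5.70 TPM over the EY libraries (SD, n = 6) and 26.4 ± 2.28 TPM over those of N (SD, n = 4), a difference of 0.10 ± 0.15 (SE, limma adjusted p 0.680). Gata2 and Gata3, which act on these genes in trophoblast, reached 0.180 and 0.393 TPM at most in any library. Whether any of these factors acts on Prl2c2 or Prl2c3 in these cultures was not tested.

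Receptors and signalling genes that serve prolactin and growth hormone were examined as a second list. Of 17 genes 14 were tested. By limma 0 were called in EY against N (beside 3.55% of all tested genes), in any EY line (4.95% to 7.04%) or between lines (5.12%). At an unadjusted limma p under 0.05, 2 passed in EY against N (14.3%, beside 37.5% of all tested genes). In each line and between the lines 3 of the 14 passed, beside 4047 to 4810 of all 11630 tested genes. At the adjusted p alone 0 passed in EY against N and 1 in EY3960, namely Cish, a feedback inhibitor induced by STAT5 (0.90 ± 0.13 SE, limma adjusted p 4.76e-04). Cish had means of 2.47, 1.72 and 1.17 TPM in EY3960, EY4028 and EY4174 and 0.862 TPM in N, with no overlap of EY and N, and over all EY libraries its difference was 0.56 ± 0.17 (SE, limma adjusted p 0.0303). Prlr, the prolactin receptor, had no row in the table used here. Igf2r, the mannose 6-phosphate receptor to which proliferin binds, was at 3.41 ± 0.737 TPM over the EY libraries (SD, n = 6) and 3.37 ± 0.231 TPM over those of N (SD, n = 4), a difference of -0.01 ± 0.14 (SE, limma adjusted p 0.984). The list median was 0.03, the same as for all tested genes.

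Among 22 angiogenic factors and inhibitors 10 were tested, of which 1 was higher and 2 were lower in EY (30%, beside 3.55% of all tested genes). Thbs1, a secreted inhibitor of vessel growth, was at 10.4 ± 3.64 TPM over the EY libraries (SD, n = 6) and 4.21 ± 1.24 TPM over those of N (SD, n = 4), a log2 difference of 1.10 ± 0.23 (SE, limma adjusted p 0.00477). Angptl2, an angiopoietin-like secreted protein, was at 0.174 ± 0.116 TPM over the EY libraries (SD, n = 6) and 2.12 ± 0.319 TPM over those of N (SD, n = 4), a log2 difference of -1.41 ± 0.13 (SE, limma adjusted p 2.65e-05). Angptl2 passed the filter only through the N libraries, so nothing is read from its call or its part in the 30%. Serpinf1, which encodes the vessel inhibitor PEDF, was at 0.887 ± 0.482 TPM over the EY libraries (SD, n = 6) and 3.03 ± 0.463 TPM over those of N (SD, n = 4), a difference of -1.13 ± 0.20 (SE, limma adjusted p 0.00208). The calls of Thbs1, Serpinf1 and Angptl2 were lost when each line was taken as 1 mean (limma adjusted p 0.398, 0.365 and 0.181). With line as a random block those of Thbs1 and Serpinf1 were lost (limma adjusted p 0.0690 and 0.0456). Vegfa, the main vessel growth factor, had a difference of -0.15 ± 0.13 (SE, limma adjusted p 0.450). The list median was -0.30, against 0.03 for all tested genes.

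Few other placental genes could be measured. Of 23 placental and trophoblast genes 9 had a row and 4 were tested. By limma 0 were called in EY against N (beside 3.55% of all tested genes) or in any EY line (4.95% to 7.04%). In EY against N 2 had an unadjusted limma p under 0.05 (50%, beside 37.5% of all tested genes). At the adjusted p alone 1 passed, beside 1377 of all 11630 tested genes. That gene was Eomes, a transcription factor of trophoblast stem cells, with a difference of 0.82 ± 0.13 (SE, limma adjusted p 0.00112) at 1.33 TPM in EY and 0.308 TPM in N. Eomes passed the filter only through EY libraries, so nothing is read from its result. Beyond Prl2c2 itself, 0 of 5 markers of trophoblast giant cells had a row in the table. The epithelial identity of the cultures was checked with 10 basal squamous markers, all of them in the table, whose summed level was 5528 to 5762 TPM in EY3960, 6704 to 6776 in EY4028, 7242 to 7947 in EY4174 and 6173 to 6746 in N. Most of this sum was Krt14, Krt5 and Perp, and single markers moved otherwise. Krt15 was 8.70 to 8.84 TPM in EY4028, 28.9 to 35.3 in the other EY lines and 64.3 to 97.9 in N. Trp63 was lower in every EY library (46.0 to 60.5 TPM) than in N (70.8 to 99.9 TPM). Epcam was higher in every EY library (53.1 to 63.3 TPM) than in N (29.3 to 38.3 TPM). Of all tested genes 20.4% likewise had no overlap of EY and N. By limma 0 of the 10 markers were called between EY and N (beside 3.55% of all tested genes) and 1 between the lines (5.12%). In each EY line 1 was called lower, where 7.04% of all tested genes were called in EY3960, 5.74% in EY4028 and 4.95% in EY4174, in either direction. Fibroblast markers, of which 4 of 10 had a row, summed to 5.76 to 6.35 TPM in EY3960, 3.81 to 4.02 in EY4028, 1.13 to 1.42 in EY4174 and 9.72 to 11.7 in N, with Col1a1 at 0.0708 TPM at most. Within EY this sum fell in the same order as the proliferins, whereas N was highest. Immune markers, with 3 of 6 in the table, summed to 69.04 to 71.9 TPM in EY3960, 35.9 to 38.5 in EY4028, 29.4 to 29.6 in EY4174 and 42.2 to 68.9 in N. Nearly all of this was Cd68, a lysosomal protein, with Ptprc at 0.347 TPM at most. Endothelial markers, with 4 of 6 in the table, summed to 0.697 TPM at most and muscle markers, with 2 of 5, to between 6.24 and 12.6 TPM. The part of these cell types in the levels of Prl2c2 and Prl2c3 was not tested, and more RNA per cell and more expressing cells cannot be told apart in bulk libraries.

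The genes whose pattern was most like the summed proliferins were found by Pearson correlation on log2(TPM + 1) across the 10 libraries, among 7589 genes with a mean of at least 5 TPM. The correlation exceeded 0.95 for 39 of them. The 8 highest were Nvl, a ribosome assembly ATPase (r = 0.995), Ifi209 (0.991) and Ifi202b (0.982), both interferon-inducible genes, Pea15a, a regulator of ERK signalling and cell death (0.985), Ocln, a tight junction protein (0.984), Atp13a4, a transport ATPase (0.984), Adtrp (0.979) and Rpn2, a subunit of the glycosylation complex (0.973). Ifi209 had mean levels of 29.99, 13.5, 2.31 and 1.94 TPM in EY3960, EY4028, EY4174 and N. Ocln had 13.9, 5.38, 2.04 and 2.19 TPM in that order. These spans are of the size seen for the proliferins, whereas Nvl, with 25.4, 18.3, 12.4 and 12.2 TPM, and Rpn2 and Pea15a moved far less. Of the 8 genes, 4 lie on chromosome 1 and 2 (Ocln and Adtrp) on chromosome 13. The most opposite genes were Aurka, a mitotic kinase (-0.988), Hmgb1, a chromatin protein (-0.974), and Mrgbp, a chromatin complex subunit (-0.974). Because libraries of a line are alike, these are close to correlations over 4 points. Without N replicate 4, 3 of the 8 genes stayed among the 8 most alike, and in the 6 EY libraries alone 1 did.

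**Figure D5:**
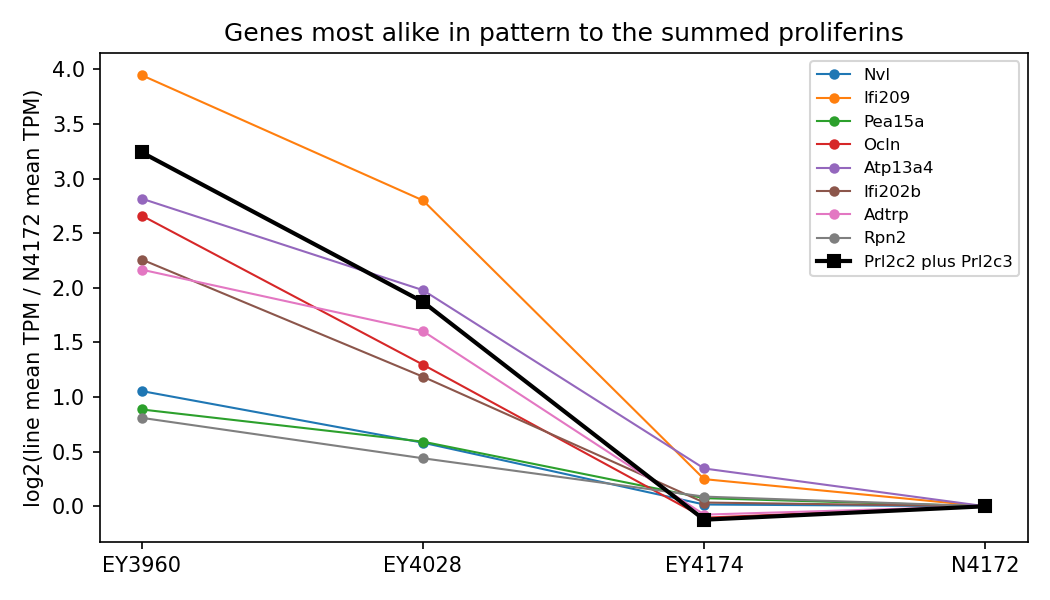
Log2 ratio of each line's mean TPM to the N4172 mean for the summed proliferins (black squares) and the 8 genes most like them across 10 libraries. All fall from EY3960 through EY4028 and end near N in EY4174, with Ifi209 changing more than the proliferins and Nvl, Pea15a and Rpn2 less.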

How the data were processed

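Poly(A) RNA of 10 libraries was analysed (6 EY, 4 N). The authors deposited TPM per gene symbol, a unit scaled to transcript length and library, so that depth is unknown and no counting interval could be given. The submitters' processing notes name STAR 2.7.9, SAMtools 1.7, HTSeq 0.13.5, DESeq2 1.34.0 and GRCm39. The methods describe TPM only for gene set enrichment (Kallisto, a human transcriptome, the highest transcript per gene). The deposited rows are mouse genes, and whether their TPM came from that step with a mouse reference is not stated.

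Prl2c2 and Prl2c3, all lists of genes and the naming rule were chosen with earlier results of these data known. Named genes were the prolactin family, the 8 genes most alike in pattern, called list genes, preset list genes, and the nearest and called neighbours. A few further list genes, markers and neighbours are named for their values. The 11630 genes that reached 1 TPM in 4 or more libraries were fitted on log2(TPM + 1) with limma 3.58.1 (R 4.3.3, trend and robust options), once with 2 genotype means and once with 4 line means. P-values were Benjamini-Hochberg adjusted over all genes tested. Fold changes on this scale understate those of low genes. The fits were tested on simulated data that held the spread within lines and no differences between lines beyond the changes put in. Such data cannot show how often line differences give false calls between EY and N. The sum of both genes received no test. Sequences were aligned with Biopython 1.88, using transcripts of GENCODE M21 and promoters of RefSeq GRCm38.p6. Since that build differs from GRCm39, gene coordinates are not given. Alternatives covered pseudocount, filter, scaling, left-out libraries and lines, replicate block and line models.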

Additional observations from a re-analysis of the deposited data

Results flagged for a closer look

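In N, 8 genes had 1 library far from the other 3 by Dixon's criterion, 7 of them in replicate 4. Chance gives about 1 in 20 groups, or 1.65 of the 33 groups examined. Replicate 4 had 30.8 TPM of Prl8a9 (others 16.8 to 18.1), 25.8 TPM of Adtrp (14.3 to 15.5), 9.71 TPM of Atf3 (3.52 to 4.13), 6.05 TPM of Thbs1 (3.34 to 3.80), 2.60 TPM of Angptl2 (1.94 to 1.98), 17.97 TPM of Ero1lb (9.13 to 9.98) and 18.5 TPM of Cmah (22.99 to 23.7). Replicate 2 had 1.67 TPM of Ocln, where the others had 2.35 to 2.39. The same replicate 4 had the highest N level of Prl2c2, Prl2c3, Prl2c5 and Prl8a1, although these did not meet the criterion.

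Differences between the EY lines were found for Prl8a9 (limma F test, adjusted p 0.00443) and for Gm11361 (limma F test, adjusted p 2.86e-04).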

How the results depend on the processing

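No called result changed its direction under the alternatives tried. The difference of Prl2c2 between EY4174 and N, near 0, ranged from -0.08 to 0.07 with a library left out. Requiring 1 TPM in every library, which tests fewer genes, gave 216 genes called between EY and N in place of 413, 455 in EY3960, 371 in EY4028, 317 in EY4174 and 350 between the EY lines. A replicate block made of the sample number gave 221 genes called between EY and N. Deviations of same-numbered libraries correlated between -0.148 and 0.0518 over 6 pairs, so the numbers do not pair the libraries, and for the prolactin family the replicate block ended only the call of Prl8a1 in EY4174 (-0.97). With line as a random block 203 genes were called and with 1 mean per line 2, fits that count lines rather than libraries. For Prl2c2 and Prl2c3 the difference between EY and N was 1.76 and 1.61 with the spread taken within lines and 2.65 and 2.50 without line EY4174. Both settings put the genes past the threshold, but they measure the line differences that chose the genes, so nothing is read from it. Without line EY3960 the differences were 0.99 and 0.82, the lowest of all alternatives and under the fold threshold. Leaving out each library gave 1.45 to 2.12 for Prl2c2 and 1.29 to 1.97 for Prl2c3. None of these was called, and nothing is read from that, since the line differences that chose the genes widen the spread. With a library left out, 295 to 444 genes were called between EY and N. The count of called neighbours ranged from 0 to 1 and was 1 without EY3960 replicate 2 and without line EY3960. Of the 8 genes of similar pattern, 3 to 8 stayed when a library was left out, and 1 in the EY libraries alone. Between the lines, 400 to 716 genes were called with a library left out. Prl2c5 was called between EY and N in 6 of 23 alternatives (-1.14 to -0.76) and Prl8a1 in 5 of 23 (-1.03 to -0.88), since both lie near the fold threshold. With pseudocount 0.1 Prl7c1 was called over all EY libraries (2.09) and in EY4028 (2.01), and Serpinf1 lost its call. Thbs1 lost its call without EY4028 replicate 1 and without any one of N replicates 1, 2 and 3, and Serpinf1 without EY3960 replicate 1 or N replicate 3. Prl8a9 in EY4028 lost its call without EY4028 replicate 1, Prl7c1 in EY3960 without EY3960 replicate 1, and Prl8a1 in EY4174 without N replicate 4. Angptl2 fell under the filter without any one N library and has no value there. Depth is unknown, so that the counting error of low genes could not be given.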
